A study of Rattus norvegicus with 8 samples.

Results

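The genes described here belong to families of motile cilium parts, the beating appendages of airway epithelial cells, although the Spag names also take in proteins of other roles (Spag4, Spag5, Spag9 and Spag11a). They were chosen by name: every probe for a gene whose name in the scanner files begins with Dnah, Dnai, Dnal, Tekt, Rsph, Spag, Spef, Ift or Tctex1d, together with Foxj1, Capsl and Dynlrb2. The rule took 34 of 35535 gene names, read by 59 of 41012 probes, and 28 genes with 38 probes were bright enough to be tested among 28421 probes. The rule reads names and no measured value, but it was set with earlier results of these data known. Rats were given cobalt (12.5 mg per kg body weight) or normal saline over 7 days and were then exposed to hypobaric hypoxia equivalent to 30000 ft for 6, 12, 24 or 48 h. Whole lung RNA of each of these 8 groups was hybridized on 1 two-channel array against the 0 h RNA of rats with the same pretreatment, so that cobalt-treated or saline-treated rats without hypoxia are the baseline. The labels give no strain, sex or age, and do not say how many animals gave each RNA. Hypoxia RNA carried Cy3 (green) on the 4 cobalt arrays and Cy5 (red) on the 4 saline arrays, and each set shared 1 slide and 1 scan: pretreatment, slide, scan and dye orientation cannot be told apart.

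An axoneme is a cylinder of doublet microtubules. Rows of outer and inner dynein arms, built of heavy, intermediate and light chains, slide the doublets past one another, radial spokes and a central pair regulate that sliding, tektins run as filaments along the doublet walls, and intraflagellar transport carries the parts up the growing cilium. In the airway these genes are transcribed together in multiciliated cells under the forkhead factor Foxj1 and the RFX factors, and they are used far less in the alveolar cells that make up most of the lung.

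Markers of lung epithelium were present: Foxj1, the club cell secretoglobin Scgb1a1, the surfactant genes Sftpc and Sftpb and the type I cell genes Ager and Aqp5 were well above background in both channels of all 8 arrays. Between 63.47% and 72.73% of spots in red and between 57.71% and 67.22% in green were well above background, and 8 arrays limit the precision of every value. Over all tested probes, log ratios of 2 arrays correlated at 0.406 to 0.753 within a pretreatment and at -0.098 to 0.272 between pretreatments (Pearson's r across probes). A ratio here is the log2 of hypoxia over 0 h. A fitted ratio is the limma estimate ± SE over 4 arrays of a pretreatment (8 for the average), called at an adjusted p under 0.05, and it treats the 4 durations as replicates.

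After saline, genes of the motile cilium were higher in hypoxia than at 0 h, and after cobalt many were lower in hypoxia than at 0 h. In the cobalt arrays, 14 of 38 probes fell and 0 rose, where over all tested probes 12% fell and 8.57% rose. In the saline arrays, 24 of 38 rose and 2 fell, where over all tested probes 20.6% rose and 20.2% fell. The median probe had a fitted ratio of -0.27 in cobalt and 0.46 in saline, against medians of -0.02 and 0.01 over all tested probes. The response after cobalt minus that after saline was called lower for 25 and higher for 2 of the 38 probes, against 16.5% and 13.9% of all probes, with a median of -0.84 against -0.02. Some dim probes have a channel that was not well above background on any array of a pretreatment and so give only a bound there. Without them, a choice made after seeing the data, 14 of 34 fell in cobalt, 22 of 34 rose and 2 fell in saline, and the difference was called lower for 23 and higher for 2 of 32, with a median of -1.08. In whole lung RNA, fewer cells of a type and less RNA per cell cannot be told apart.

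The fall after cobalt depended on single arrays more than the rise after saline did. Without the cobalt 6, 12, 24 or 48 h array in turn, 8, 4, 9 and 7 probes were called lower in cobalt in place of 14. Calls over all 28421 probes dropped as well, to 1981, 1576, 1436 and 2158 lower in place of 3405. With median centring instead of loess, cobalt gave 29 probes lower and 5 higher. Over all 28421 probes that setting called 17148 lower and 5576 higher, so the shift was not particular to the members. In saline, leaving out any 1 array left 20 to 24 probes called higher, and 4609 to 5728 of all 28421 in place of 5856.

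**Figure D1:**
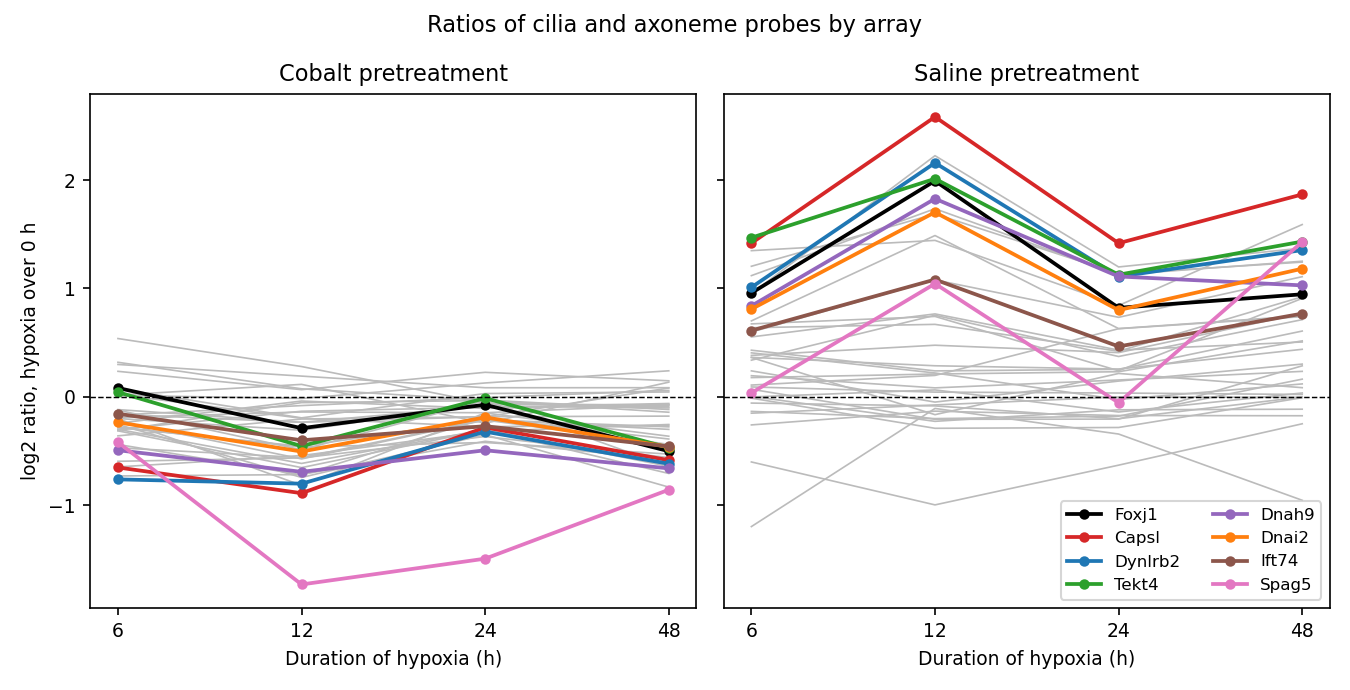
The log2 ratio of hypoxia over 0 h (vertical axis) is plotted against the duration of hypoxia in hours for the 38 tested probes, with cobalt on the left and saline on the right. Each line is 1 probe (grey, with 8 genes coloured), each point 1 array. Capsl, Dynlrb2, Foxj1, Tekt4, Dnah9 and Dnai2 lie above 0 on all 4 saline arrays, highest at 12 h, while most lines lie below 0 in cobalt.

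Foxj1, the transcription factor that switches on the motile cilium programme, had ratios of 0.08, -0.29, -0.07 and -0.50 at 6, 12, 24 and 48 h after cobalt, and 0.96, 1.99, 0.82 and 0.95 after saline. The groups did not overlap, and the saline 12 h array stood highest. Its fitted ratio was -0.20 ± 0.18 in cobalt (adjusted p = 0.47) and 1.18 ± 0.18 in saline (adjusted p = 0.000802), a 2.27-fold rise after saline, and the 2 responses differed by -1.38 ± 0.25 (adjusted p = 0.00328).

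Capsl, a calcyphosine-like calcium-binding protein of ciliated cells, had the highest fitted saline ratio of the 38 probes. Its values were -0.65, -0.89, -0.28 and -0.59 after cobalt, and 1.42, 2.58, 1.42 and 1.87 after saline. All 4 cobalt arrays were below 0 and all 4 saline arrays above it. It fell by 0.60 ± 0.18 on the log2 scale in cobalt (adjusted p = 0.0389) and rose 3.54-fold in saline (1.82 ± 0.18, adjusted p = 0.000109). The probe reads a stretch of the transcript that lies at chr2:58991213-58991272 on the plus strand of rat build rn3 per the scanner files, and 1 of its 3 reading frames has no stop codon. It is shown because this 60-base stretch carries the widest difference between pretreatments, -2.43 ± 0.25.
Capsl probe: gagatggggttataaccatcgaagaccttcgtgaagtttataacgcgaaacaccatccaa

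Dynlrb2, a roadblock-type dynein light chain, had ratios of -0.76, -0.80, -0.32 and -0.62 after cobalt, and 1.01, 2.16, 1.11 and 1.35 after saline. As for Capsl, 12 h was lowest in cobalt and highest in saline, and 24 h was closest to 0 in cobalt. The fitted ratios were -0.63 ± 0.17 in cobalt (adjusted p = 0.0263) and 1.41 ± 0.17 in saline (adjusted p = 0.000254).

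Of the dynein heavy chains, the motors of the arms, 15 of 31 probes passed the filter, for 8 of 10 genes. In cobalt 7 fell and 0 rose, and in saline 9 rose and 1 fell, the 9 including dim second probes of Dnah6 and Dnah11 that give no measured size. Over all tested probes, 12% fell and 8.57% rose in cobalt, and 20.6% rose and 20.2% fell in saline. Dnah9, an outer arm chain, had ratios of -0.49, -0.69, -0.49 and -0.66 after cobalt, and 0.84, 1.83, 1.11 and 1.03 after saline. It fell by 0.59 ± 0.14 in cobalt (adjusted p = 0.0161) and rose by 1.20 ± 0.14 in saline (adjusted p = 0.000222). Its other 3 probes were too dim to be tested. Dnah3, an inner arm chain, had -0.22, -0.57, -0.22 and -0.44 after cobalt, and 0.70, 1.49, 0.63 and 0.75 after saline. Its saline ratio passed (0.89 ± 0.14, adjusted p = 0.000865) and its cobalt ratio did not (-0.36 ± 0.14, adjusted p = 0.0851).

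Dnah1, the heavy chain of an inner arm, is read by 2 bright probes that went opposite ways. The first (A_44_P1003917) had ratios of -0.31, -0.65, -0.31 and -0.71 after cobalt, and 1.21, 1.69, 1.14 and 1.24 after saline. The second (A_43_P16210) had 0.54, 0.28, -0.06 and -0.09 after cobalt, and -1.20, -0.11, -0.34 and -0.96 after saline. The 2 probes shared a sign on 2 of 8 arrays. In saline the first rose (1.32 ± 0.11, adjusted p = 5.7e-05) and the second fell (-0.65 ± 0.18, adjusted p = 0.0149), although both were well above background on all arrays. The second also differed in level: over both channels its level on the cobalt arrays minus that on the saline arrays was -2.37 ± 0.20 on the log2 scale (adjusted p = 1.2e-05), while the first differed by 0.00 ± 0.12. With the mean over probes in place of single probes, Dnah1 was called in none of these contrasts of ratios.

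The sequences of both Dnah1 probes are shown 5′ to 3′ because they are the clearest disagreement within a gene. On the minus strand of rn3 the first lies at chr16:6693878-6694418, a span of 541 bases for a 60-base probe, and the second at chr16:6724493-6724552. Both sequences hold 2 reading frames without a stop codon. No annotation of that build was used here, so their exons are not given.
Dnah1 A_44_P1003917: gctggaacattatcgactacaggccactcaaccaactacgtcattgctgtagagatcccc
Dnah1 A_43_P16210: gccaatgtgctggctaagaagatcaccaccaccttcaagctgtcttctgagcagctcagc

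Dnah7, an inner arm chain, is read by 6 probes, of which 5 passed the filter. The brightest, A_43_P22550, had -0.60, -0.56, -0.37 and -0.56 after cobalt, and 0.60, 1.08, 0.73 and 1.11 after saline. A_44_P124277 had -0.73, -0.72, -0.41 and -0.58 after cobalt, and 0.38, 0.48, 0.41 and 0.77 after saline. These 2 probes shared a sign on 8 of 8 arrays. A_43_P16011 fell in cobalt (-0.42 ± 0.08, adjusted p = 0.00493) but did not pass in saline (0.18 ± 0.08, adjusted p = 0.0824), and it shared a sign with the brightest on 7 arrays. A_44_P291147, well above background on 5 arrays only, had -0.06, -0.08, -0.20 and 0.00 after saline, and its hypoxia channel was not well above background on any cobalt array. The fifth, A_44_P423841, was at background in both channels after saline. The saline response of the other 4 probes of this 1 gene ranged between -0.09 and 0.88 on the log2 scale. In rn3 coordinates, all on the minus strand, the 4 probes lie at chr9:52243557-52255858, chr9:52261698-52261757, chr9:52401400-52401459 and chr9:52350219-52350278 in the order printed, and each has at least 1 reading frame without a stop codon.
Dnah7 A_43_P22550: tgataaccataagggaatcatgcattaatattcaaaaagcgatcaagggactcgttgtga
Dnah7 A_44_P124277: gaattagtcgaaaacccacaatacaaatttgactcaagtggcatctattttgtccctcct
Dnah7 A_43_P16011: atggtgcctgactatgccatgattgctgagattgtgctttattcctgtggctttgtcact
Dnah7 A_44_P291147: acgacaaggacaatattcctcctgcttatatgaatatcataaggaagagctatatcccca

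**Figure D2:**
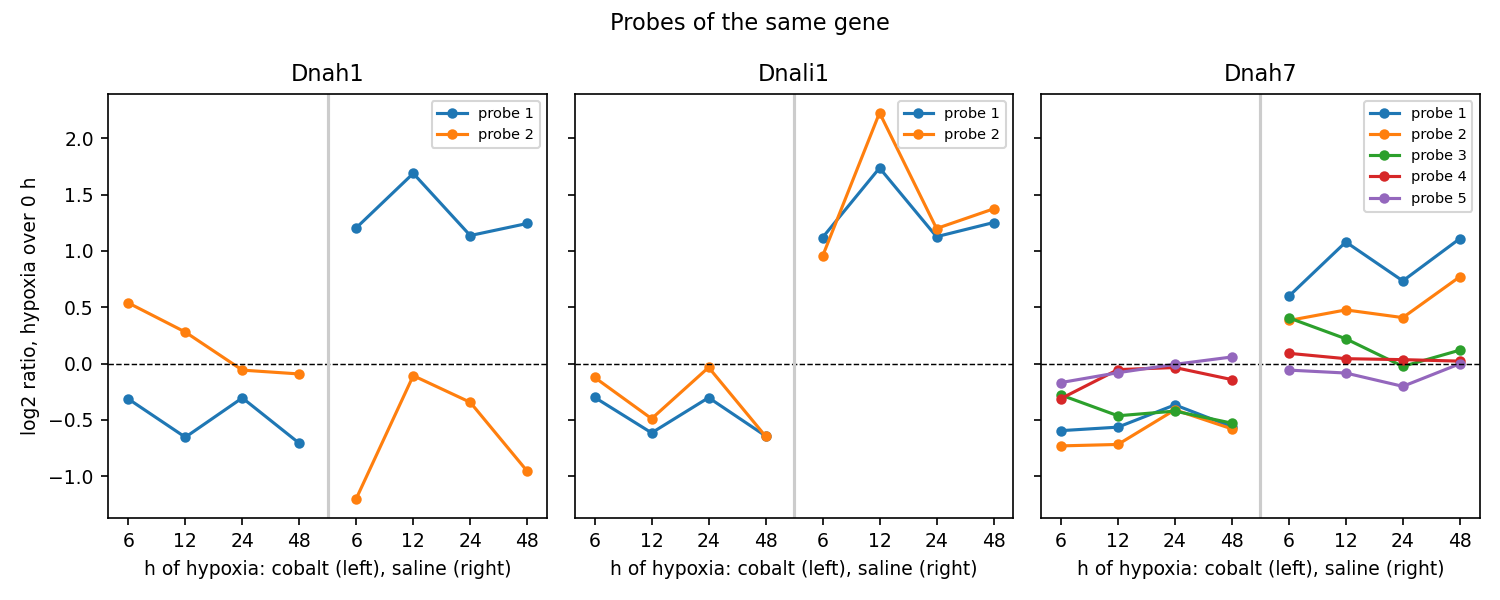
Log2 ratios of hypoxia over 0 h (vertical axis) are plotted for each tested probe of Dnah1, Dnali1 and Dnah7, with the 4 cobalt arrays left and the 4 saline arrays right of the grey line in each panel, ordered by hours of hypoxia. Each line is 1 probe, numbered by falling mean intensity. The 2 Dnali1 probes run together, the 2 Dnah1 probes run apart, and the 5 Dnah7 probes fan out in saline.

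The other heavy chains were dimmer. The brighter probe of Dnah6, an inner arm chain, had fitted ratios of -0.38 ± 0.11 in cobalt (adjusted p = 0.0337) and 0.64 ± 0.11 in saline (adjusted p = 0.0015), and its second probe shared a sign with it on 7 of 8 arrays. That second probe was not well above background in hypoxia after cobalt, where it gives a bound of at least 1.091-fold lower than 0 h (adjusted p = 0.0926), nor in either channel after saline. The brighter probe of Dnah11, an outer arm chain, had -0.31 ± 0.08 in cobalt (adjusted p = 0.0198) and 0.38 ± 0.08 in saline (adjusted p = 0.00389), and both of its probes agreed in sign on all 8. The second Dnah11 probe was not well above background in hypoxia after cobalt or at 0 h after saline, so it gives bounds only. The dim channel was set at the dimmest signal well above background on each array, or at its own level where that was higher. Hypoxia was at least 1.097-fold lower than 0 h after cobalt (adjusted p = 0.0559). After saline it was at least 1.12-fold higher (adjusted p = 0.0211), which is the fitted ratio itself. Dnah10, an inner arm chain, passed neither test on 1 dim probe, which was at 0.06 ± 0.07 in cobalt and had no hypoxia channel well above background in saline. The probe that the files name Dnahc11 lies on rn3 chromosome 10, whereas the Dnah11 probes lie on chromosome 6. It kept its file name and was called in neither pretreatment, and its hypoxia channel was not well above background on any cobalt array. All probes of Dnah5 and Dnah8 were too dim to be tested.

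Of the dynein intermediate and light chains, all 5 probes of 3 genes passed the filter, and 3 of them rose in saline. Over all tested probes 20.6% rose in saline, but 5 probes are too few for a share. Dnai2, an outer arm intermediate chain, had -0.24, -0.51, -0.19 and -0.46 after cobalt, and 0.81, 1.70, 0.80 and 1.18 after saline. It rose 2.18-fold in saline (1.12 ± 0.14, adjusted p = 0.000329), and in cobalt its ratio of -0.35 ± 0.14 did not pass (adjusted p = 0.107). Dnali1, an inner arm light intermediate chain, is read by 2 probes that shared a sign on 8 of 8 arrays, with r = 0.983 over them as a description (0.986 for the first 2 Dnah7 probes). Its brighter probe had -0.30, -0.62, -0.30 and -0.64 after cobalt, and 1.12, 1.74, 1.13 and 1.25 after saline. The other had -0.12, -0.49, -0.03 and -0.65 after cobalt, and 0.95, 2.23, 1.20 and 1.37 after saline. Both rose in saline (1.31 ± 0.11 and 1.44 ± 0.18, adjusted p = 6.7e-05 and 0.00037), and only the brighter fell in cobalt (-0.47 ± 0.11, adjusted p = 0.0186, against -0.32 ± 0.18, adjusted p = 0.243, for the other). A difference between those 2 probes was not tested.

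Dnal4, a dynein light chain, went its own way. Its brighter probe had -0.24, -0.04, -0.11 and -0.07 after cobalt, and -0.26, -0.13, -0.17 and -0.18 after saline. All 8 values were negative, both pretreatments overlapped, and the average over them fell by 0.15 ± 0.05 (adjusted p = 0.0425). That call was lost when any 1 array was left out. The second probe, with an average of -0.16 ± 0.06 (adjusted p = 0.0799), shared a sign with the first on 7 of 8 arrays.

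All 4 tektin probes passed the filter and all 4 rose in saline, and 1 fell in cobalt. Over all tested probes 20.6% rose in saline and 12% fell in cobalt, but 4 probes are too few for a share. Tekt4 had 0.04, -0.46, -0.01 and -0.47 after cobalt, and 1.47, 2.01, 1.13 and 1.43 after saline. It was at or near 0 at 6 and 24 h in cobalt, and high on every saline array, with fitted ratios of -0.22 ± 0.14 (adjusted p = 0.291) and 1.51 ± 0.14 (adjusted p = 8.6e-05). Tekt1 had -0.20, -0.82, -0.15 and -0.36 after cobalt, and 1.35, 1.44, 0.84 and 1.59 after saline. Tekt2 was the tektin that fell in cobalt (-0.55 ± 0.11, adjusted p = 0.00744), with values of -0.26, -0.75, -0.35 and -0.83, against 0.55, 0.77, 0.43 and 0.51 after saline. Its size was about equal in the 2 pretreatments with opposite sign. Tekt3 had values on both sides of 0 in cobalt, with 0.02, 0.11, -0.24 and 0.13, although with median centring it was called lower there (-0.45, adjusted p = 0.00845). Its saline values of 0.11, 0.20, 0.63 and 0.74 were higher at the 2 later durations. Without the saline 24 h or 48 h array its saline call (0.42 ± 0.12, adjusted p = 0.0175) was lost.

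Of the intraflagellar transport genes, 4 of 5 probes passed the filter, of which 3 rose in saline and 1 fell in cobalt. These 4 are likewise too few for a share, where 20.6% of all tested probes rose in saline and 12% fell in cobalt. Ift74, a core subunit of the anterograde transport complex, had -0.16, -0.40, -0.27 and -0.46 after cobalt, and 0.61, 1.08, 0.46 and 0.77 after saline, and rose 1.66-fold in saline (0.73 ± 0.10, adjusted p = 0.000589). Ift57, of the same complex, had -0.20, -0.31, -0.07 and -0.08 after cobalt, and 0.36, 0.29, 0.26 and 0.44 after saline (0.34 ± 0.07, adjusted p = 0.00498). Ift80, also of that complex, was the one that passed in both, at -0.44 ± 0.10 in cobalt (adjusted p = 0.0153) and 0.54 ± 0.10 in saline (adjusted p = 0.00263). Ift88 had 0.02, -0.20, -0.28 and -0.26 after cobalt, and 0.07, -0.21, -0.21 and 0.29 after saline. Its groups overlapped and it passed neither test.

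The name rule also takes sperm-associated antigens of other roles. Spag7 went the opposite way, with 0.24, 0.07, 0.23 and 0.15 after cobalt, and -0.60, -0.999, -0.63 and -0.25 after saline. It fell by 0.62 ± 0.11 in saline (adjusted p = 0.0017), and the response after cobalt minus that after saline was 0.79 ± 0.15 (adjusted p = 0.00436), although with median centring it was -0.75. Spag9, a JNK scaffold and motor adaptor, passed no test of ratios on either of its 2 probes, which shared a sign on 5 of 8 arrays. Its brighter probe had 0.30, 0.19, 0.08 and 0.08 after cobalt, and 0.36, -0.17, 0.22 and 0.08 after saline, and the other had 0.01, -0.02, 0.13 and 0.24 after cobalt, and 0.00, -0.23, -0.12 and -0.11 after saline. Spag4, a SUN-domain protein of the nuclear envelope, had -0.12, -0.24, -0.18 and -0.18 after cobalt, and -0.13, -0.20, -0.18 and 0.16 after saline, without a call. Sun5 (Spag4l in the files), the defensin-like Spag11a and the central pair gene Spag6 were too dim to be tested, as was Dynlt5 (Tctex1d1 in the files).

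Spag8 and Spag1, which are tied to motile cilia, had ratios below 0 on all 4 cobalt arrays and above 0 on all 4 saline arrays. Spag8, a protein of the ciliary doublet lumen, was at -0.44 ± 0.10 in cobalt (adjusted p = 0.0167) and 0.66 ± 0.10 in saline (adjusted p = 0.00102). Spag1, a factor for assembling dynein arms, was at -0.14 ± 0.07 in cobalt (adjusted p = 0.215) and 0.28 ± 0.07 in saline (adjusted p = 0.013), a call that was lost without the saline 48 h array.

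Spag5 (astrin) is a mitotic spindle protein. It had -0.42, -1.73, -1.495 and -0.86 after cobalt, and 0.04, 1.04, -0.05 and 1.43 after saline. It fell by 1.13 ± 0.27 in cobalt (adjusted p = 0.0175), a 2.18-fold fall that was not called without the cobalt 12 h or 24 h array, and did not pass in saline (0.61 ± 0.27, adjusted p = 0.0946). Markers of proliferating cells moved beside it: in cobalt 7 of 10 fell and 0 rose, with a median of -0.62, against 12% and 8.57% of all probes. In saline 0 passed in either direction, with a median of 0.04, where 20.6% of all rose and 20.2% fell. Their part in the result was not tested.

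**Figure D3:**
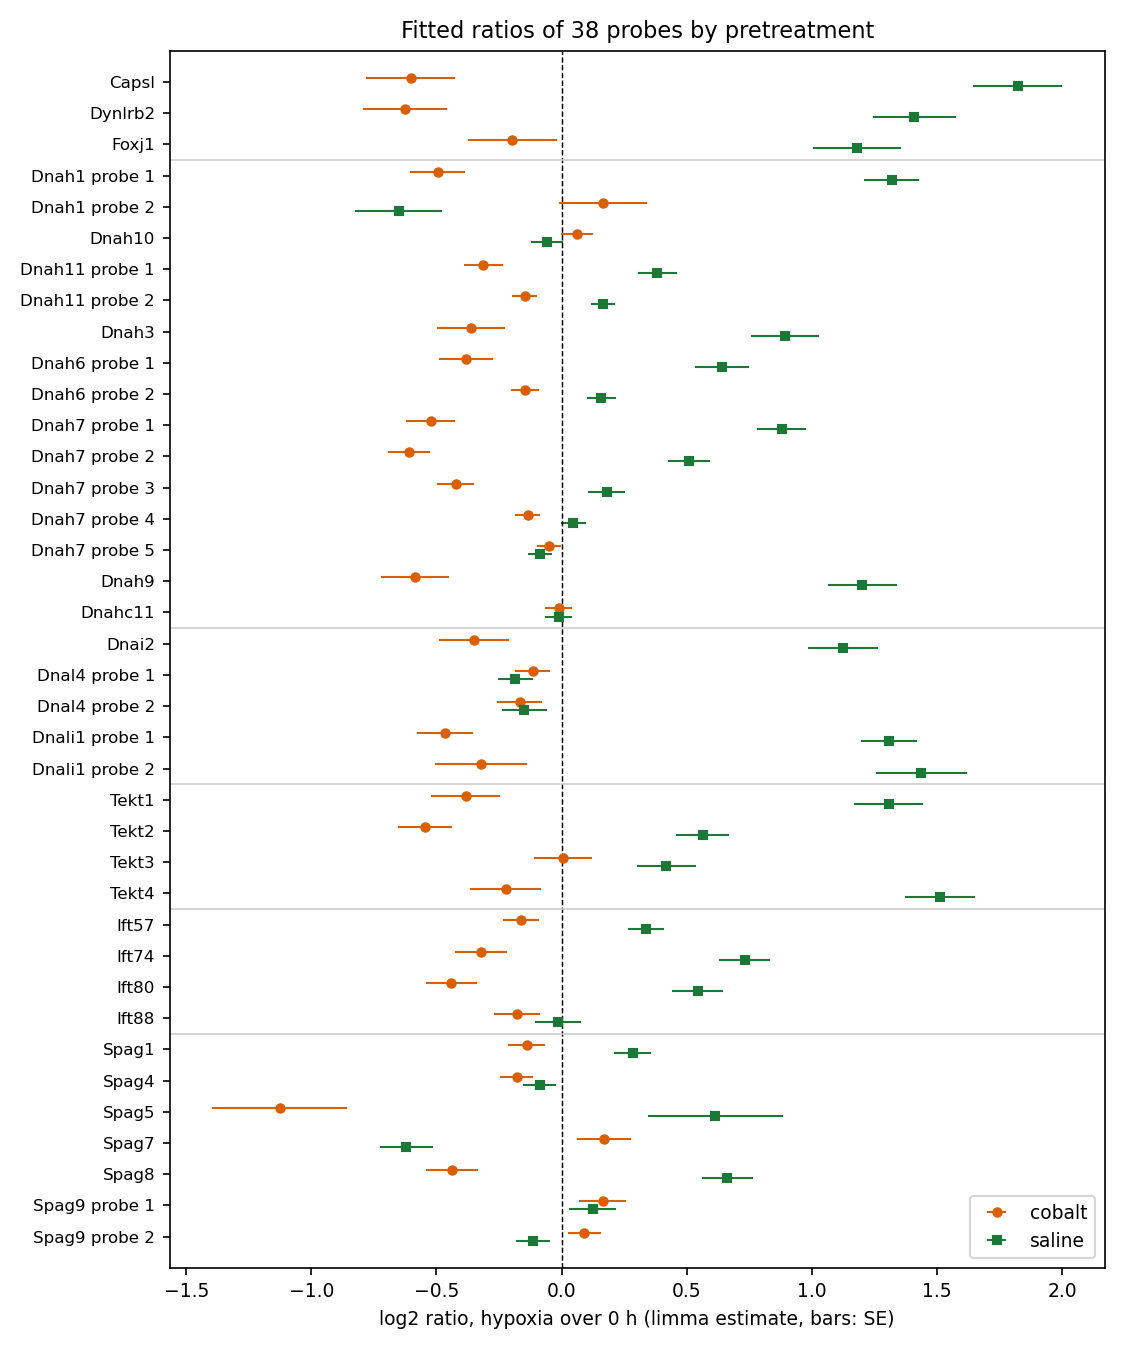
Fitted log2 ratios of hypoxia over 0 h (horizontal axis) are shown for the 38 tested probes, with cobalt as orange circles and saline as green squares. Bars are SE from limma, and grey lines part the roles (Foxj1, Capsl and Dynlrb2 at the top, then heavy chains, intermediate and light chains, tektins, transport and other Spag genes). Capsl lies farthest right in saline and Spag5 farthest left in cobalt. Dnah1 probe 2 and Spag7 have saline left of cobalt with a called difference, and a few other probes have that order without one.

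The average over both pretreatments is the contrast in which a dye bias shared by the 2 slides cancels. There 10 of 38 probes were higher and 2 lower in hypoxia, against 14.9% and 17.4% of all probes, and the median was 0.06 against -0.01. The 10 were Tekt4 (0.64 ± 0.10, adjusted p = 0.00144), Capsl (0.61 ± 0.13, adjusted p = 0.00568), both Dnali1 probes, Foxj1 (0.49 ± 0.12, adjusted p = 0.0145), Tekt1, Dnah1 by its first probe, Dynlrb2, Dnai2 and Dnah9, the last at 0.31 ± 0.10 (adjusted p = 0.0357). The 2 lower ones were Spag7 (-0.23 ± 0.08, adjusted p = 0.0447) and Dnal4. Of these, Dnah9 lost its call without the saline 24 h array or any 1 cobalt array, Dynlrb2 without the saline 48 h or the cobalt 24 or 48 h array, and Spag7 without any 1 array except the saline 48 h array. The count of lower probes fell to 0 without the saline 12 or 24 h or the cobalt 6, 12 or 24 h array, and to 1 without the saline 6 h array, where it was a Dnah7 probe (A_43_P16011), or the cobalt 48 h array, where it was the second Dnal4 probe. Without the saline 48 h array the 2 were Spag7 and Spag4. None of the 38 probes had ratios above 0 on all 8 arrays, a pattern of 6.41% of all probes.

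Signs in the 2 pretreatments were opposed for many members. For 12 of 38 probes saline was called higher and cobalt lower, a pattern of 2.79% of all probes, the reverse was called for 0, against 1.98%, and both were called higher for 0, against 2.8%. Ratios were below 0 on all 4 cobalt arrays for 26 of 38 probes (26.8% of all) and above 0 on all 4 for 2 (20.3%), and they were above 0 on all 4 saline arrays for 24 (25.9%). Saline arrays lay wholly above cobalt arrays for 26 of 38 probes (17.8% of all), and cobalt arrays wholly above saline arrays for 2 (14.3%). Because the dyes were turned between the slides, opposed signs also mean 1 order of the colours: red exceeded green on all 8 arrays for 21 of 38 probes, against 7.31% of all, and green exceeded red on all 8 for 1, Spag7, against 5.07%. A probe-specific dye bias and opposed responses cannot be told apart from such values. In the average an equal dye bias on both slides cancels, and so do equal and opposed responses.

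The levels of the single channels carry the same dye and slide as the ratios and are given as values. They are log2 channel intensities after loess and equalizing of mean intensity between arrays. Each is worked out from an array's mean of both channels and its ratio, so levels restate the ratios in part. They are compared within a probe, except where they are summed over a gene list on the linear scale. Foxj1 had a mean level of 12.53 ± 0.16 in cobalt hypoxia and 12.73 ± 0.12 at cobalt 0 h, and of 13.16 ± 0.58 in saline hypoxia and 11.98 ± 0.11 at saline 0 h (SD, n = 4 arrays each). Capsl had 9.43 ± 0.27 in cobalt hypoxia and 10.03 ± 0.07 at cobalt 0 h, and 10.60 ± 0.59 in saline hypoxia and 8.77 ± 0.06 at saline 0 h. The 2 genes had the same order: saline hypoxia highest, then cobalt 0 h, cobalt hypoxia, and saline 0 h lowest. Tekt4 had it too, with 11.36 ± 0.20 in cobalt hypoxia and 11.59 ± 0.07 at cobalt 0 h, and 12.17 ± 0.47 in saline hypoxia and 10.66 ± 0.17 at saline 0 h. Of 23 probes called higher in saline and well above background on all 8 arrays, 8 had this order, so most of these did not. That choice of probes already sets saline hypoxia above saline 0 h. The order was not counted over the other members.

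The 0 h channel has 1 control name on the 4 arrays of a pretreatment, and the labels do not say whether it is 1 pool of RNA. Over the 38 probes its range across 4 arrays had a median of 0.147 in cobalt, where the hypoxia channel had 0.350, and of 0.206 in saline, where the hypoxia channel had 0.572. The cobalt 0 h level was above the saline 0 h level for 32 of 38 probes (median difference 0.46), and the cobalt hypoxia level above the saline hypoxia level for 10 (median difference -0.28). These pairs were read in different dyes, and their order follows in part from the opposed ratios, so it is not a separate result. In 1 dye, red, saline hypoxia was above cobalt 0 h for 19 of 38 probes. In the other, green, saline 0 h was below cobalt hypoxia for 27 of 38. These level counts, ranges and median differences were not worked out over all tested probes. Whether they are particular to the members was not tested. With the mean of both channels, which leaves dye out, 11 probes were higher and 5 lower on cobalt than on saline arrays, against 23.8% and 22.1% of all, with a median of 0.09 against 0.00. Without the saline 24 h array 7 were higher.

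**Figure D4:**
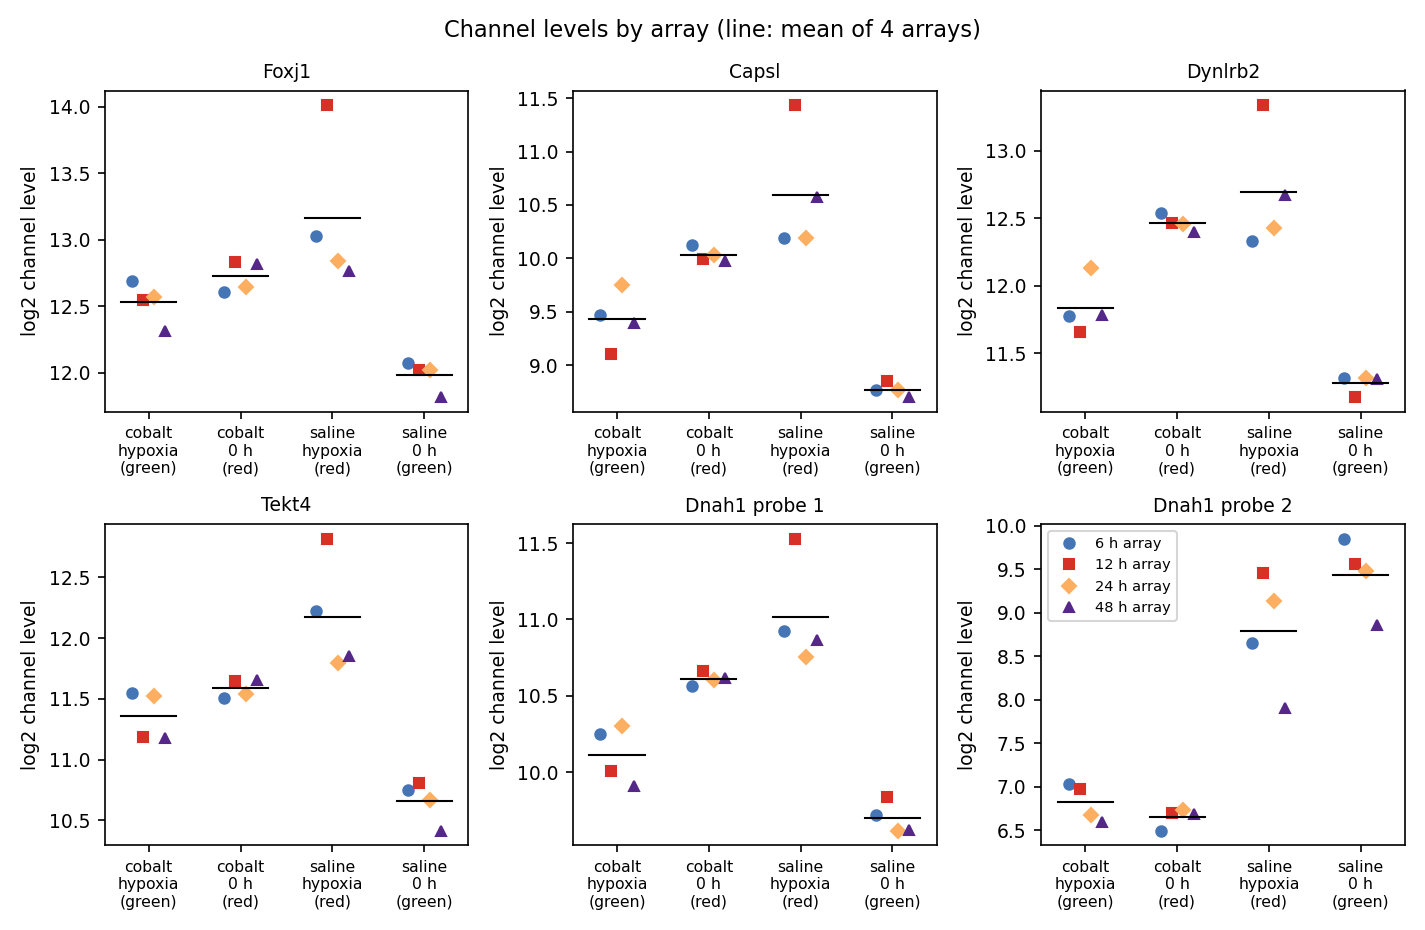
Log2 channel levels (vertical axis, scaled per panel) of Foxj1, Capsl, Dynlrb2, Tekt4 and the 2 Dnah1 probes are plotted for cobalt hypoxia, cobalt 0 h, saline hypoxia and saline 0 h. Each point is 1 array, marked by its duration, and lines are means of 4 arrays. Except for Dnah1 probe 2, the mean of saline hypoxia is highest, with the 12 h array on top, and that of saline 0 h is lowest.

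Duration had no called effect. For 24 and 48 h against 6 and 12 h, 0 of 38 probes passed in the average of the pretreatments, in cobalt or in saline, as did 0% of all 28421 probes. At an unadjusted p under 0.05, limma found 0, 1 and 1 of 38, against 13.2%, 8.24% and 10.2% of all. The 12 h array was the highest of the 4 saline arrays for 16 of 38 probes, against 24.4% of all, and the lowest of the 4 cobalt arrays for 16, against 22.8%. Both held for 6 probes, against 5.64%. The member median after cobalt was -0.23, -0.43, -0.19 and -0.29 at 6, 12, 24 and 48 h, and after saline 0.37, 0.38, 0.25 and 0.66.

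The promoters of the members were searched for letters known from ciliary genes. The RFX half-site GTTGCC, read on both strands, was in the RefSeq promoter window (250 bases before to 50 after the start, GRCr8) of 11 of the 26 member genes that have one, or 42.3%, and of 13.1% of all 27457 genes with a window. The 11 were Capsl, Dnah10, Dnah11, Dnai2, Ift88, Spag4, Spag6, Spag8, Tekt1, Tekt2 and Tekt4, and so hold genes that rose in saline, genes that did not and 1 that was too dim to be tested. The half-site followed after any 2 bases by its reverse complement, GTTGCCNNGGCAAC, was in 0 of 26 and in 0.135% of all genes. The forkhead core TGTTTAC was in 2 of 26, Dnali1 and Tekt3, and in 4.13% of all genes. The longest run that the Tekt2 and Dnai2 windows share, GGTTGCTAGGCAACC, overlaps their half-site on the minus strand and was in no other window. It was chosen from these letters. A match is a description of letters and not a bound site.

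The windows of 3 genes that rose in saline are shown with each half-site in capitals, read 5′ to 3′ along the gene's strand. Tekt1 lies at chr10:57479072-57479371 on the minus strand, Tekt2 at chr5:143907675-143907974 on the minus strand, and Dnai2 at chr10:100258772-100259071 on the plus strand of GRCr8.
Tekt1: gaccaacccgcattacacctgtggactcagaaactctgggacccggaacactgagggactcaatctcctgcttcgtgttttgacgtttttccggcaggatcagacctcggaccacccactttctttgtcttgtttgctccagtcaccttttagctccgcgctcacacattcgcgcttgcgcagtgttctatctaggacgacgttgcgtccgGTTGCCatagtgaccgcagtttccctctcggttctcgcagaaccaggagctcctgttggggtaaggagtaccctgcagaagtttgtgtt
Tekt2: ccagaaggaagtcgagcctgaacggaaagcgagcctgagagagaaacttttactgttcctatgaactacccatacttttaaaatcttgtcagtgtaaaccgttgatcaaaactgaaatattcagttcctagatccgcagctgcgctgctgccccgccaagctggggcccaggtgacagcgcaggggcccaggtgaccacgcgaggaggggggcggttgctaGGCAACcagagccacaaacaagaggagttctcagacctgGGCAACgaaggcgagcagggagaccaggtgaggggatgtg
Dnai2: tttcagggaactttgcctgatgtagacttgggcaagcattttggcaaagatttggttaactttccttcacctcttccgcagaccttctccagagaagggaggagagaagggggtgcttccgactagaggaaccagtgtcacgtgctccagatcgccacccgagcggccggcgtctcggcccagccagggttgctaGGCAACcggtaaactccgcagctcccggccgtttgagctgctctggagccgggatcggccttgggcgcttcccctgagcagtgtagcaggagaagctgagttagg

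The files also hold members of the same families under older or other names, which the rule misses, such as all radial spoke genes. This list was drawn up from the names in the files, and 24 of its 26 genes passed the filter, with 1 probe a gene. In cobalt 16 fell and 0 rose (median -0.42), against 12% and 8.57% of all probes. In saline 17 rose and 0 fell (median 0.71), against 20.6% and 20.2%. By the lowest p for the average, its first genes were Rsph1, a radial spoke head protein, Ift43, a subunit of the retrograde transport complex, and Rsph9, another spoke head protein. Rsph1 was at -0.45 in cobalt (adjusted p = 0.0205) and 1.60 in saline (adjusted p = 2.8e-05), and Rsph9 at -0.50 in cobalt (adjusted p = 0.0124) and 1.497 in saline (adjusted p = 3.3e-05). Ift43 was at 0.13 in cobalt, without a call, and 0.64 in saline (adjusted p = 0.000332).

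A list of 188 other motile cilium genes had 98 on the array and 96 tested, none of them shared with the list of older names. In cobalt 2 rose and 32 fell (median -0.25), against 8.57% and 12% of all probes. In saline 74 rose and 2 fell (median 0.72), against 20.6% and 20.2%. Both lower in cobalt and higher in saline were 31, against 2.79% of all. Red exceeded green on all 8 arrays for 60 of the 96, against 7.31% of all probes. In the average 47 were higher and 3 lower, against 14.9% and 17.4% of all. Cfap90 led by p and was at -0.20 in cobalt (adjusted p = 0.115) and 1.28 in saline (adjusted p = 1.8e-05). Tppp3, a tubulin-binding protein, was an exception that fell in both, by 0.33 in cobalt (adjusted p = 0.0249) and by 0.55 in saline (adjusted p = 0.0011). Nme7, a nucleoside diphosphate kinase family member at ciliary microtubules, was at -0.15 in cobalt (adjusted p = 0.278) and 1.00 in saline (adjusted p = 8.6e-05).

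Genes that serve all cilia or other transport were counted in the same way, where over all tested probes 8.57% rose and 12% fell in cobalt and 20.6% rose and 20.2% fell in saline. Of 53 tested genes of the BBSome, transition zone and primary cilium, 1 rose and 13 fell in cobalt (median -0.16) and 17 rose and 4 fell in saline (median 0.04), led by Nek8, Bbs2 and B9d1. Of 28 kinesin-2, cytoplasmic dynein and otherwise named transport genes, 2 rose and 7 fell in cobalt (median -0.13) and 13 rose and 4 fell in saline (median 0.19). Its first gene, the dynein light chain Dynll1, rose in both, by 0.42 in cobalt (adjusted p = 0.0159) and 0.64 in saline (adjusted p = 0.001), followed by Tubb5 and Dctn1. Of 22 regulators of multiciliation, 1 rose and 6 fell in cobalt (median -0.15) and 5 rose and 3 fell in saline (median -0.01), which is 22.7% and 13.6% and so near the shares over all probes. They were led by Pcm1, a centriolar satellite protein that fell by 0.55 in cobalt (adjusted p = 0.00339) and was at -0.22 in saline (adjusted p = 0.0762), then Hes1 and Cep152. No difference between these lists was tested.

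Markers of another airway cell, counted as a list, moved in the same directions as the ciliary genes. Of 15 tested markers of club and airway secretory cells, 0 rose and 5 fell in cobalt (median -0.18), where 8.57% and 12% of all probes did. In saline 9 rose and 0 fell (median 1.11), against 20.6% and 20.2% of all. Their summed level on the linear scale was 59570 to 69240 in cobalt hypoxia and 109000 to 116000 at cobalt 0 h, and 70920 to 133000 in saline hypoxia and 35850 to 37990 at saline 0 h. The summed level of the 28 ciliary genes, 1 probe each, was 24470 to 28790 in cobalt hypoxia and 32270 to 34390 at cobalt 0 h, and 35020 to 62190 in saline hypoxia and 20210 to 21490 at saline 0 h. Such a sum is weighted to the brightest probes, here those of Foxj1, Dynlrb2, Tekt4 and Dnali1, and does not describe the typical gene of a list. Both sums were lower in hypoxia than at 0 h after cobalt and higher in hypoxia than at 0 h after saline. They were also higher at cobalt 0 h than at saline 0 h, but those were read in different dyes on different slides, which cannot be told apart from pretreatment. Because levels are worked out in part from the ratios, this order is not a separate result. Of the 16 club markers on the array only Tff2 was too dim to be tested. Of the 15 tested, 2 were called lower in cobalt and higher in saline, against 2.79% of all probes and 12 of 38 ciliary probes. For 3 of the 15, red exceeded green on all 8 arrays, against 7.31% of all probes and 21 of 38 ciliary probes. A difference between the lists was not tested.

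Markers of other cells moved differently, or stayed near the shares over all probes. Over all tested probes, 8.57% rose and 12% fell in cobalt, and 20.6% rose and 20.2% fell in saline. Of 10 type II cell markers, 3 rose and 0 fell in cobalt and 0 rose and 9 fell in saline. Of 9 type I cell markers, 0 rose and 1 fell in cobalt, or 11.1% and so near the share of all probes, and 0 rose and 4 fell in saline. Of 9 smooth muscle markers, 9 rose and 0 fell in cobalt and 6 rose and 2 fell in saline. Of basal and squamous markers 5 were tested, with 1 higher in cobalt and 2 in saline, and of cartilage markers 7, with 1 higher in each. These lists are too short for their shares to be set against those of all probes. Of 12 spermatogenic markers, 4 passed the filter, and those too dim to be tested included Prm2, Tnp1 and Odf1. The part of airway, alveolar and muscle content in the ciliary result was not tested.

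**Figure D5:**
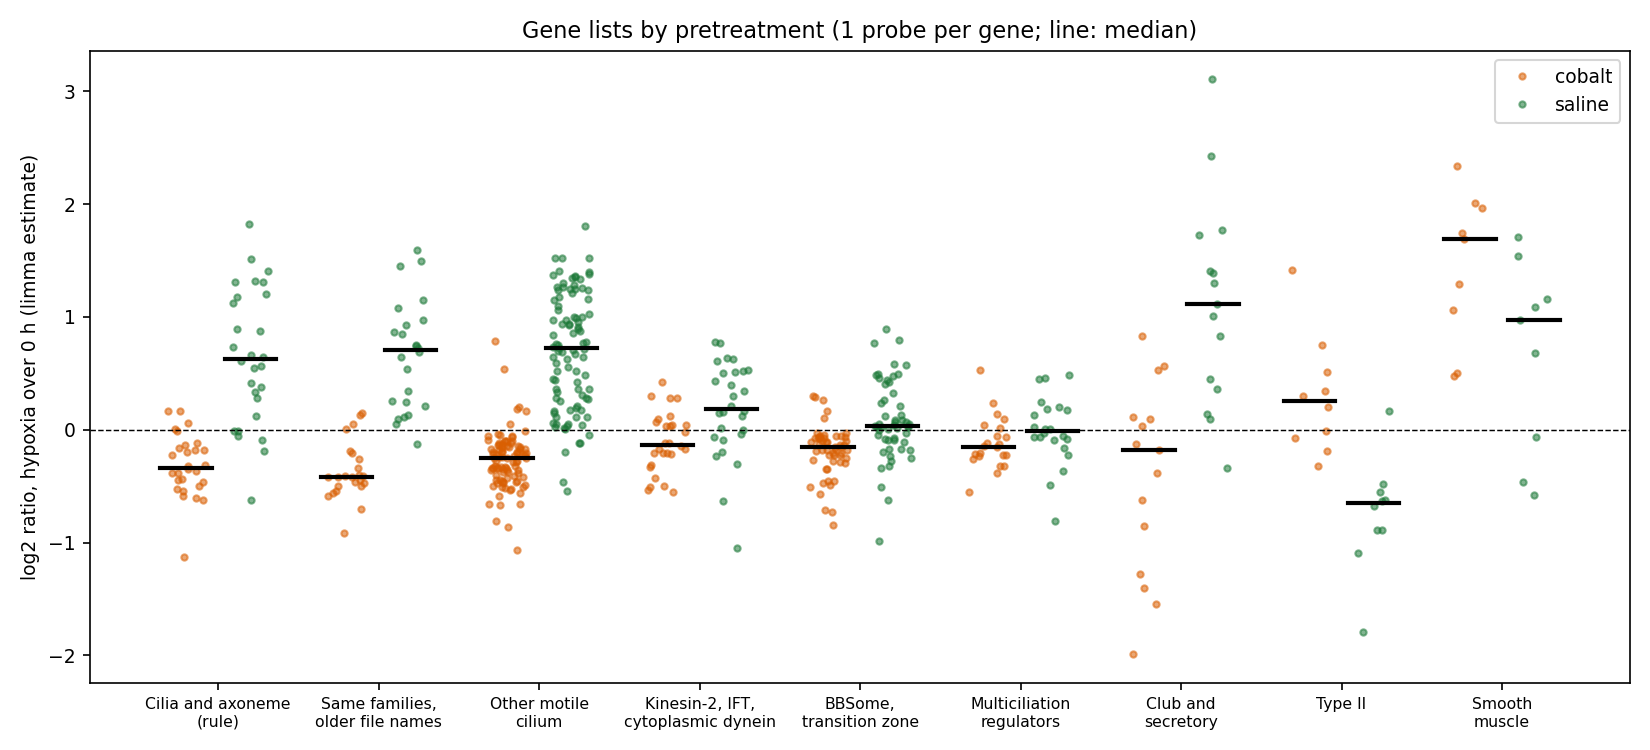
Fitted log2 ratios of hypoxia over 0 h (vertical axis) are plotted by gene list, with cobalt left (orange) and saline right (green) in each. Each point is 1 gene, represented by its brightest tested probe, and black lines are medians. Medians are below 0 in cobalt and above 0 in saline for the 3 motile cilium lists, the transport list, the BBSome list (0.04 in saline) and the club cell list. They are below 0 in both for the regulators, above 0 in both for smooth muscle, and above 0 in cobalt and below 0 in saline for type II markers.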

How the data were processed

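Lung RNA of 8 groups of rats was measured on 8 two-channel Agilent arrays of 60-base probes. The spot intensity (mean and local background, in scanner units) came from Agilent Feature Extraction 9.5.1.1, per the file headers. Its LogRatio column, per the file headers a log10 of red over green, had been normalized by that software. For the deposited series matrix the scale (log2), centring (median 0 on each array) and direction (hypoxia over 0 h) were read from the values, which matched LogRatio at r = 1 on saline and r = -1 on cobalt arrays. Further steps of the authors are not given in the sources used here.

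Normexp (offset 50) and loess within arrays were run in limma 3.58.1 under R 4.3.3, with data.table in version 1.17.8, and mean intensities were made equal between arrays for levels only. Ratios were turned to hypoxia over 0 h by the dyes in the labels. To be tested, a probe had to be well above background in 1 channel or both on 4 or more of the 8 arrays, with no missing value. The fit had 1 mean for each pretreatment and a variance trend over intensity, and Benjamini-Hochberg adjustment ran over all 28421 probes. Nothing in the labels says that the arrays hold separate animals: p-values reflect how arrays and durations vary, and not how 0 h RNA does. The script was tested on simulated data.

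Names came from the GRCr8 gene table, without its coordinates (10735 probes by accession, 5577 by symbol, 3730 by synonym), and 20970 probes kept the file's name. The members, gene lists and marker lists were chosen with earlier results of these data known. Values on all arrays are given for Foxj1, Capsl, Dynlrb2 and, in each role, the 3 genes with the lowest p for the average, and probe values for genes with several tested probes. Of each list the 3 genes with the lowest p are named. Array values of Tekt2 and Spag5 were added after they were seen. The brightest probe stands for a gene where 1 value is given. Alternatives were the values of the software and of the series matrix, no background subtraction, median centring, scaling between arrays, no or a strict filter, 1 probe per gene or their mean, outlier spots kept, no variance trend, a duration factor, and 1 array left out at a time.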

Additional observations from a re-analysis of the deposited data

Results flagged for a closer look

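The response after cobalt differed from that after saline, by the test of the difference itself, for 27 of the 38 probes, which are listed here by the log2 difference, cobalt minus saline. Below -1.5 were Capsl at -2.43, Dynlrb2 at -2.04, Dnah1 (first probe) at -1.81, Dnah9 at -1.79, Dnali1 at -1.77 and -1.76, Spag5 at -1.74, Tekt4 at -1.73 and Tekt1 at -1.69. Between -1.5 and -1 were Dnai2 at -1.47, Dnah7 at -1.40 and -1.12, Foxj1 at -1.38, Dnah3 at -1.25, Tekt2 at -1.11, Spag8 at -1.10, Ift74 at -1.05 and Dnah6 at -1.02. Nearer 0 were Ift80 at -0.99, Dnah11 at -0.70, the third Dnah7 probe at -0.60, Ift57 at -0.50 and Spag1 at -0.42. The second probes of Dnah11 and Dnah6 passed the test at fitted differences of -0.31 each, but both have channels that were not well above background on any array of a pretreatment, so these are no measured sizes. Of the opposite sign were Dnah1 by its second probe at 0.82 and Spag7 at 0.79.

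In 5 probes 1 array stood far from the other 3 of its pretreatment. Foxj1 was at 1.99 and Dnah3 at 1.49 on the saline 12 h array, and Spag1 at 0.52 on the saline 48 h array. Dnah7 (A_43_P22550) was at -0.37 on the cobalt 24 h array and Dnahc11 at -0.19 on the cobalt 12 h array, where its hypoxia channel was not well above background. Chance flags about 1 in 20 groups. Each of the 38 probes has a group in each pretreatment, so chance alone gives about as many flags.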

How the results depend on the processing

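Counts below are of member probes called. In every alternative tried, 19 to 29 were lower in cobalt minus saline and 19 to 25 were higher in saline, and the late against early contrasts gave 0. Similar member counts do not mean the same share of all probes. Of all 28421 probes, median centring called 13401 higher in saline in place of 5856. It called 17357 lower for the difference in place of 4702. The cobalt count of 14 lower became 29 with median centring, which also gave 5 higher, where 17148 and 5576 of all 28421 probes were called. It became 22 with scaling between arrays, where 5087 of all were called lower. Median centring moved the median of all tested probes to -0.48 in cobalt and 0.24 in saline, and the member medians to -0.89 in cobalt, 0.75 in saline and -1.58 for the difference. Of the genes' estimates, signs turned under it alone: Spag7 to -0.72 in cobalt, 0.029 in saline and -0.75 for the difference, Spag9 to -0.68 in cobalt and -1.37 for the difference, Dnal4 to 0.31 in saline and -1.26 for the difference, Tekt3 to -0.45 in cobalt, and Dnahc11 to 0.50 in cobalt, 0.61 for the difference and 0.20 in the average. The cause was not tested.

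Medians in cobalt, saline and for the difference were -0.51, 0.75 and -1.35 by the software's log ratio, and by the series matrix -0.51, 0.75 and -1.35. Saline and difference medians were 0.10 and -0.16 with no filter, 0.61 and -1.10 with the strict filter, and 0.63 and -1.08 with 1 probe per gene, since these change which probes are counted. Lower in the average were 4 with no background subtraction, 4 with median centring, 1 with no filter and 1 with duration as a factor, the fit that pairs the arrays of a duration as a replicate block. The block gave 12 lower in cobalt and otherwise kept the counts of called probes, at 10 higher in the average, 24 higher and 2 lower in saline, and 2 higher and 25 lower for the difference. The labels hold no replicate numbers. Leaving out member probes with bounds only, added after seeing the data, moved the median of the difference to -1.08 and kept every count of calls within 1.5 times. With 1 probe per gene and with the mean over probes alike, 1 was lower in saline and 1 higher for the difference, against 2 each, and 1 probe per gene gave 5 higher and 3 lower in level. For the difference, median centring gave 6 higher, where 4859 of all 28421 probes were called higher and 17357 lower.

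Leaving out 1 array gave 8 to 12 higher and 0 to 2 lower in the average (medians 0.03 to 0.08), 0 higher and 4 to 18 lower in cobalt (medians -0.32 to -0.21), 20 to 24 higher and 1 to 2 lower in saline (medians 0.33 to 0.54), 1 to 2 higher and 25 to 26 lower for the difference (medians -0.89 to -0.78), and 7 to 10 higher and 4 to 5 lower in level (medians 0.07 to 0.19). The difference kept 1 higher without the saline 6 or 48 h or the cobalt 6 or 12 h array, and saline 1 lower without its 6 h array. Medians of late minus early ran between -0.06 and 0.09 in the average, between -0.05 and 0.15 in cobalt and between -0.15 and 0.045 in saline.

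The signal over background limits what can be said: 21 of 59 probes, those of Dnah5, Dnah8 and Spag6 among them, were too dim to be tested. The fit has 1 array for each pretreatment and duration, so a change over time is tested only between pairs of durations.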
